A study of Mus musculus with 18 samples.

Results

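The proteasome subunit genes were taken as the rows of the deposited count table whose Ensembl gene ID maps to 1 of 37 listed mouse symbols. All 37 were found among the 54532 genes of the table, each under a single ID, and all 37 passed the low-count filter, as did 17833 genes in all. RNA was measured in gastrocnemius, the large calf muscle, of female C57BL/6 mice with a muscle-specific knockout of Zfp697 (mKO) or with the flox/flox genotype that served as its control. Each genotype was sampled as caged control animals, after hindlimb unloading for 10 days, which takes body weight off the calf, and at 3 days of reloading, when the weight is back on it. The 6 groups are thus mKO control, mKO unloading, mKO reloading, flox control, flox unloading and flox reloading, with 3 libraries each. The Cre driver, the deleted part of Zfp697 and the age of the animals are not given in the sources used here.

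The proteasome degrades proteins that carry ubiquitin chains, and in skeletal muscle it does much of the protein breakdown that accompanies wasting. Its 20S core is a barrel of stacked rings, in which Psma genes encode the outer alpha rings and Psmb genes the inner beta rings. Proteolytic sites lie on the beta subunits encoded by Psmb5, Psmb6 and Psmb7, and in the immunoproteasome, induced by interferons and abundant in immune cells, these are replaced by the products of Psmb8, Psmb9 and Psmb10. The 19S cap recognises and unfolds substrates. Its base holds a ring of ATPases encoded by Psmc genes and the scaffold or ubiquitin-binding subunits encoded by Psmd1, Psmd2 and Psmd4, and its lid, encoded by other Psmd genes, includes Psmd14, the enzyme that cuts ubiquitin off the substrate. Other caps open the core without ATP. PA28, built from the products of Psme1 and Psme2, is interferon-inducible and tied to antigen processing, and PA200, encoded by Psme4, is known for its preference for acetylated proteins, histones among them.

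Total counts ran from 45069595 to 51592566 per library, and the 37 genes took 0.3415% to 0.4209% of them. The muscle label held: the 13 muscle fibre markers summed to between 133284 and 190028 CPM in every library, where CPM is counts scaled to library size with TMM composition factors. Zfp697, the targeted gene, had 1.05, 1.31 and 1.25 CPM in mKO control, 2.47, 1.09 and 1.41 CPM in mKO unloading and 1.6, 1.95 and 1.47 CPM in mKO reloading libraries. In flox libraries it had 1.0, 0.984 and 1.6 CPM at control, 1.58, 1.74 and 1.61 CPM at unloading and 2.79, 2.33 and 2.57 CPM at reloading. Its mKO over flox difference at reloading was -0.61 ± 0.25 log2 (SE; edgeR adjusted p = 0.172). These counts cover the whole gene and all cells of the muscle, so they do not test the genotype labels. In bulk muscle, fewer cells of a type and less RNA per cell cannot be told apart, which holds for every result below. Nothing in the labels ties each library to its own animal, so the p-values cover the spread among libraries of a group, part of which may be technical.

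Per transcript length, most subunits lay within a narrow band. Counts per kilobase, rescaled to the same sum in every library (TPM), were averaged over the 18 libraries. The highest mean was that of the ATPase gene Psmc5, at 261 ± 19.9 TPM (SD, n = 18), followed by the alpha ring gene Psma6 at 228 ± 12.6 TPM. Class medians of these means were 97.1 TPM for the 7 alpha ring genes, 119 TPM for the 7 constitutive beta ring genes, 146 TPM for the 6 ATPase genes, 123 TPM for the 3 other base genes and 88.7 TPM for the 8 lid genes. Psme4 averaged 109 ± 19.5 TPM, within that band. The PA28 genes lay below it, Psme1 at 36.5 ± 6.23 TPM and Psme2 at 26.8 ± 4.64 TPM. The immunoproteasome genes were the 3 lowest, with Psmb10 at 16.4 ± 3.5 TPM, Psmb8 at 3.75 ± 0.891 TPM and Psmb9 at 2.25 ± 0.455 TPM. Psmb8 rested on 110 to 270 counts per library and Psmb9 on 84 to 204, against 9925 to 19250 for Psme4, so values of Psmb8 and Psmb9 are the least precise. Because the deposited lengths cover every exon of a gene, TPM understates genes with long retained introns.

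**Figure D1:**
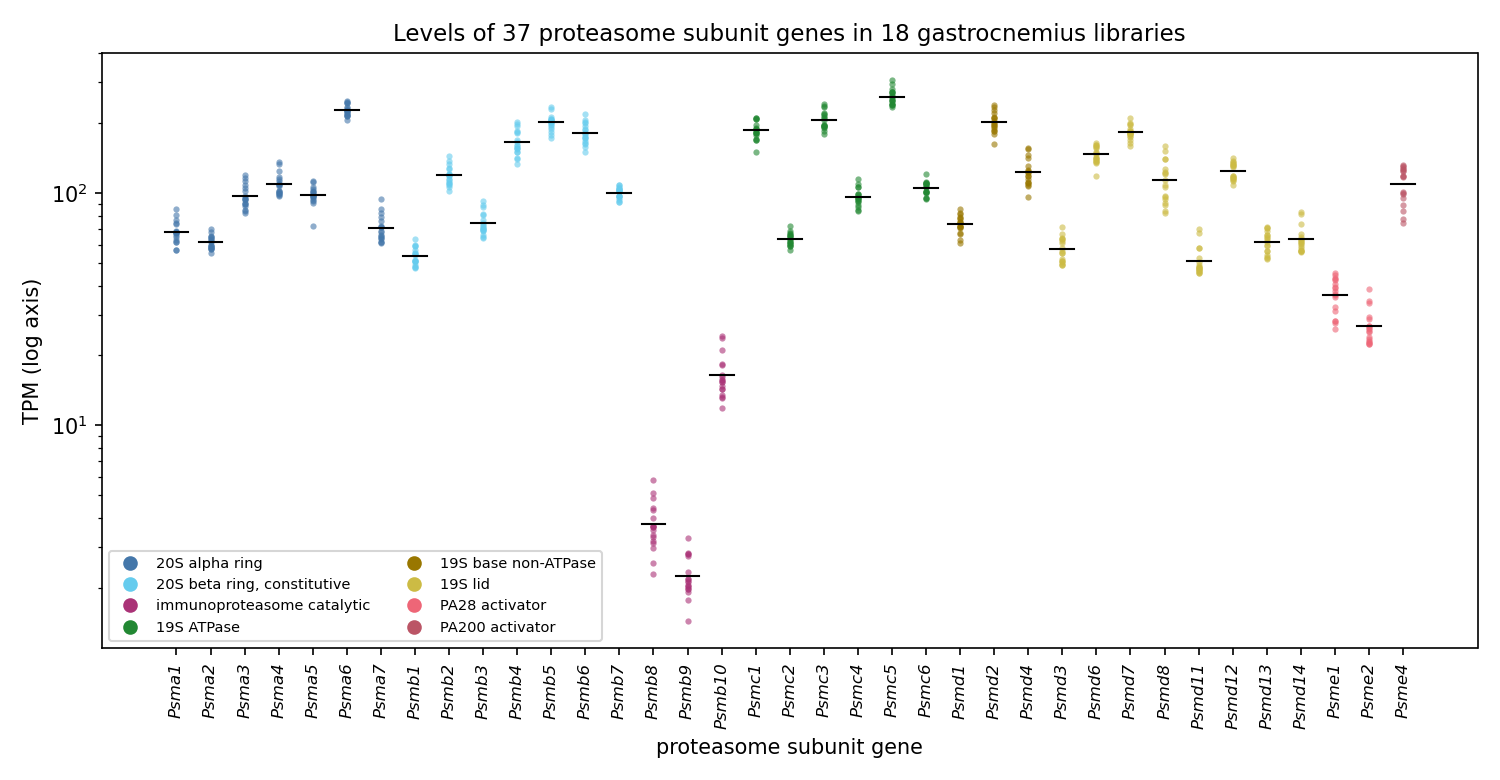
TPM (log axis) of the 37 proteasome subunit genes, with 1 point for each of the 18 libraries, a black line for their mean and colour for the class. Psmb8 and Psmb9 sit at or below 5.8 TPM in every library, Psmb10, Psme1 and Psme2 between 11.9 and 45.2 TPM, and the other genes at 45.1 TPM or more.

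The levels also moved little between groups. The ratio of the highest to the lowest of the 6 group means in CPM had a median of 1.18 over the 37 genes, and 27 of 37 (73.0%) were under 1.25. Among 5903 tested genes with a mean between 16.8 and 329 CPM, the band of the 34 genes other than the immunoproteasome genes, 47.4% were under 1.25 and the median was 1.26. The constitutive catalytic genes show the steady kind. Psmb5, the chymotrypsin-like site, had 71.7, 63.6 and 66.1 CPM in mKO control, 65.4, 58.4 and 67.6 CPM in mKO unloading and 65.6, 59.8 and 61.7 CPM in mKO reloading libraries, and in flox libraries 70.9, 68.3 and 58.0 CPM at control, 64.6, 72.7 and 64.4 CPM at unloading and 67.2, 58.2 and 61.0 CPM at reloading. All 6 groups of Psmb5 overlapped. Psmb6, the caspase-like site, had 123, 128 and 110 CPM in mKO control, 121, 111 and 119 CPM in mKO unloading and 138, 125 and 122 CPM in mKO reloading libraries, and in flox libraries 117, 117 and 104 CPM at control, 115, 122 and 120 CPM at unloading and 133, 121 and 124 CPM at reloading. Psmb7, the trypsin-like site, had 140, 125 and 124 CPM in mKO control, 129, 128 and 130 CPM in mKO unloading and 124, 110 and 117 CPM in mKO reloading libraries, and in flox libraries 127, 117 and 118 CPM at control, 121, 124 and 131 CPM at unloading and 113, 112 and 114 CPM at reloading. No group mean of these 3 genes stood more than 1.15 times above the lowest. The widest ratios were 1.65 for Psme4, 1.52 for Psmb10, 1.5 for Psmb8, 1.47 for Psmb9, 1.45 for Psme1 and 1.41 for Psme2, so the activator and immunoproteasome genes filled the top of that order. The 3 immunoproteasome genes lie below the band used above, and over all tested genes the median ratio was 1.45. Psmb8 and Psmb9 rest on few counts, which can widen such a ratio, and Psmb9 was called in no loading comparison.

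Where the genes lie and what stands at their starts was read from the annotation. On GRCm38, Psme1 (ENSMUSG00000022216, chromosome 14, 55578123 to 55581529, plus strand) and Psme2 (ENSMUSG00000079197, chromosome 14, 55587441 to 55591113, minus strand) are close neighbours, and so are Psmb9 (ENSMUSG00000096727, chromosome 17, 34181988 to 34187764, minus strand) and Psmb8 (ENSMUSG00000024338, chromosome 17, 34197721 to 34201454, plus strand). Psmb10 (ENSMUSG00000031897) lies apart on chromosome 8, from 105935735 to 105938444 on the minus strand, and Psme4 (ENSMUSG00000040850, plus strand) on chromosome 11, bases 30771726 to 30880361. RefSeq windows of GRCm38.p6, from 250 bases before to 50 bases after the start, existed for 31 of the 37 genes. The antioxidant response element, the site bound by NFE2L1 and NFE2L2, was searched on both strands as the letters TGACNNNGC, and stood in 5 of 31 windows (16.1%) against 14% of 27025 genes. The interferon-stimulated response element, searched as GAAANNGAAA, stood in 3 of 31 windows (9.68%) against 3.99% of genes. No window of these genes held both, so no 2 matches overlapped, and a match is a description of the window, not a measured site. Strands are given relative to the gene. The matches are shown because each falls in a gene whose response is described below or in a constitutive catalytic gene:
Psme1, interferon element, opposite strand, first base 9 after the start: GAAAGCGAAA
Psmd4, interferon element, opposite strand, first base at -80: GAAATGGAAA
Psme4, antioxidant element, opposite strand, first base at -7: TGACGCTGC
Psmb5, antioxidant element, same strand, first base at -47: TGACGTCGC
Psmb6, antioxidant element, same strand, first base at -9: TGACGGAGC
The other 3 matches were an interferon element in Psmb3 and antioxidant elements in Psmc6 and Psmd12. The windows of Psmb8, Psmb9, Psmb10 and Psme2 held neither set of letters.

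The windows of the 2 activator genes with the largest loading changes are given whole, 5′ to 3′ on the plus strand, with the motif in capitals as it reads on that strand. That of Psme1 spans chr14:55578244-55578543 and that of Psme4 spans chr11:30771525-30771824:
Psme1: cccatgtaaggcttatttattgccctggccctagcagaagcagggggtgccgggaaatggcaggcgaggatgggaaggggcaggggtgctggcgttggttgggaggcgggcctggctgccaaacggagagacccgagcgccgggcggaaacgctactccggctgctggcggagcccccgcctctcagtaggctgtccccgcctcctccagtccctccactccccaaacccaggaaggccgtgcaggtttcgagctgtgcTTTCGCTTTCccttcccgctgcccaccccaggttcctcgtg
Psme4: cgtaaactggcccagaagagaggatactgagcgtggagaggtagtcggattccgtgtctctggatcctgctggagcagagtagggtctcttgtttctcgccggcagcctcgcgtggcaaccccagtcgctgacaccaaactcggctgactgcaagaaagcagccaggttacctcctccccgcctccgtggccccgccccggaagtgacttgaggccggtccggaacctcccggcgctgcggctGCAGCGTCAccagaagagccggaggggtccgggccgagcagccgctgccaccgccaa

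Unloading against control asked what disuse did to these genes. Most did not pass the test in either genotype, and the gene that fell in both was Psme1, the PA28 alpha subunit. In mKO muscle 0 genes rose and 1 of 37 fell by edgeR (2 fell by DESeq2), against 4.09% higher and 3.66% lower, or 7.75% in all, of all tested genes. In flox muscle 2 rose and 1 fell, against 2.67% higher and 3.07% lower, or 5.74% in all. The median log2 fold change of the 37 was 0.016 in mKO and 0.016 in flox, beside -0.0063 and -0.0022 for all tested genes. At an unadjusted p under 0.05 there were 7 of 37 genes in mKO and 6 in flox, against 4182 and 3630 of all 17833 tested genes.

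Psme1 in mKO muscle had 30.8, 33.6 and 30.3 CPM at control, 21.2, 25.1 and 21.2 CPM at unloading and 33.3, 27.6 and 36.5 CPM at reloading. In flox muscle it had 30.2, 35.5 and 32.1 CPM at control, 21.2, 24.7 and 22.5 CPM at unloading and 30.2, 31.5 and 31.1 CPM at reloading. All 6 unloading libraries lay below all 12 others. Fibroblast markers, 7 genes, were low in the same libraries, summing to 1505 to 1991 CPM at control, 912 to 1153 CPM at unloading and 1733 to 2122 CPM at reloading in mKO libraries, and to 1490 to 1750, 999 to 1185 and 2326 to 3327 CPM in flox libraries. On unloading 4 of these 7 markers fell in mKO, against 3.66% of all tested genes, and 3 of 7 in flox, against 3.07%. Of 12 tested interferon signalling genes, 4 fell on unloading in mKO, against the same 3.66%, and 0 were called in flox. They summed to 74.5 to 77.1 CPM at control and 57.0 to 64.9 CPM at unloading in mKO libraries. In flox libraries they summed to 68.5 to 75.7 and 59.8 to 76.3 CPM, which overlapped. The part of fibroblasts or of interferon signalling in the Psme1 change was not tested. The Psme1 fall on unloading was -0.49 ± 0.10 log2 (SE; edgeR adjusted p = 0.00702) in mKO and -0.52 ± 0.10 (adjusted p = 0.00651) in flox, and the difference between these changes was 0.03 with a 95% interval from -0.27 to 0.32. Both falls were called under all 25 alternative settings, with adjusted p up to 0.0439 in mKO and 0.0444 in flox. Exons of Psme1 overlap Emc9 on the opposite strand, which averaged 800.4 counts per library and moved by -0.29 ± 0.15 (adjusted p = 0.264) in mKO and -0.51 ± 0.15 (adjusted p = 0.0524) in flox. The part of reads from Emc9 in the Psme1 counts was not tested. Psme2, the PA28 beta subunit, did not pass on unloading, at -0.09 ± 0.09 (adjusted p = 0.615) in mKO and -0.14 ± 0.09 (adjusted p = 0.406) in flox. The TPM ratio of Psme1 to Psme2 was lower at unloading, 109%, 123% and 113% in mKO libraries against 139%, 156% and 163% at control, and 120%, 143% and 118% in flox libraries against 161%, 188% and 146% at control, with no overlap in either genotype.

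The 2 genes that rose on unloading, in flox muscle, both encode lid subunits. Psmd8 had 128, 160 and 133 CPM in flox unloading against 104, 110 and 93.7 CPM in flox control libraries, without overlap, a rise of 0.45 ± 0.12 (adjusted p = 0.0407). In mKO muscle it had 150, 121 and 143 CPM at unloading against 123, 96.0 and 108 CPM at control, which overlapped, and the change of 0.34 ± 0.12 did not pass (adjusted p = 0.104). Psmd13 had 81.4, 77.2 and 76.9 CPM in flox unloading against 67.2, 66.1 and 66.7 CPM in flox control libraries, a rise of 0.24 ± 0.06 (adjusted p = 0.0301), while its mKO change was 0.08 ± 0.06 (adjusted p = 0.466). Exons of Psmd13 overlap Sirt3, which averaged 684.2 counts per library and moved by -0.18 ± 0.10 (adjusted p = 0.33) in flox. Psmd8 and Psmd13 each lost their call without any 1 of the 3 flox control or 3 flox unloading libraries, which left 1 gene called each time. Psmd8 also lost it without mKO control replicate 3, mKO unloading replicate 3 or flox reloading replicate 2, its adjusted p reaching 0.157, and that of Psmd13 reached 0.213. The Psmd13 call was also lost without the low-count filter and with only the groups compared fitted.

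In mKO unloading the smallest p after that of Psme1 belonged to Psmb9, an immunoproteasome subunit. It had 1.83, 2.57 and 2.39 CPM at unloading against 3.26, 2.92 and 3.83 CPM at control, without overlap, and the change of -0.56 ± 0.19 did not pass (adjusted p = 0.075), although DESeq2 called it (adjusted p = 0.0439). In flox muscle it had 2.72, 3.52 and 2.82 CPM at unloading against 2.77, 2.82 and 2.95 CPM at control. Without mKO unloading replicate 2 the mKO comparison called 3 genes, Psma1 and Psmd4 being added to Psme1.

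**Figure D2:**
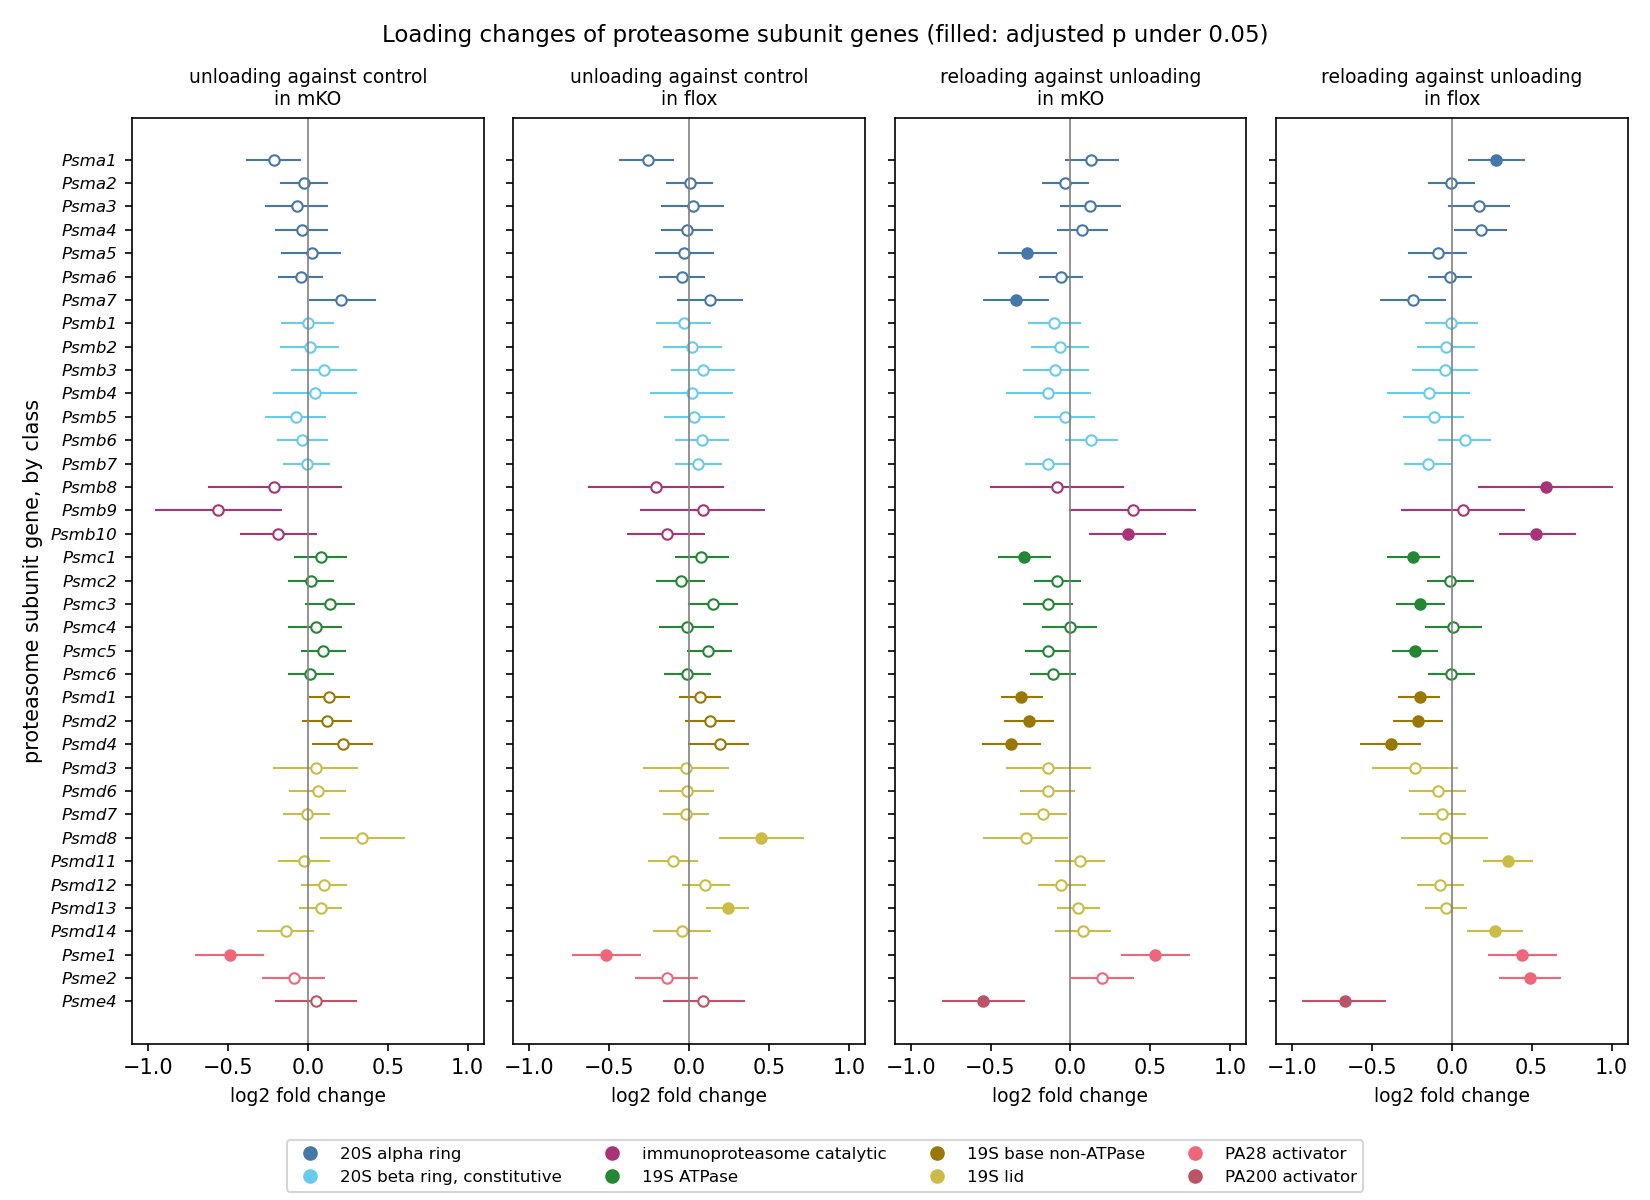
Log2 fold changes of the 37 genes, 1 row each and coloured by class, for unloading against control and reloading against unloading in mKO and flox muscle, with 95% intervals; filled points have an adjusted p under 0.05. Most points sit near 0, Psme1 is left of 0 on unloading and right of it on reloading, Psme4 is left of 0 on reloading, and the 3 points of Psmd1, Psmd2 and Psmd4 are filled on the left in both reloading panels.

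Reloading against unloading moved more of the genes, and in both directions. PA200 and the scaffold genes of the 19S base fell in both genotypes, 2 of the 5 PA28 and immunoproteasome genes rose in mKO and 4 of 5 in flox, and the constitutive beta ring did not pass. In mKO muscle 2 of 37 genes rose and 7 fell, against 9.53% higher and 8.81% lower, or 18.3% in all, of all tested genes. In flox muscle 7 rose and 7 fell, against 17% higher and 14.9% lower, or 31.9% in all. The share of called members was 24.3% in mKO and 37.8% in flox. The median log2 fold change was -0.085 in mKO and -0.035 in flox, beside 0.0062 and 0.0042 for all tested genes. An unadjusted p under 0.05 was reached by 14 and 17 of the 37 genes, against 5623 and 7358 of all 17833 tested genes. Psme1 and Psmb10 rose, and Psme4, Psmd1, Psmd2, Psmd4 and Psmc1 fell, in both genotypes, which makes 7 genes or 77.8% of the mKO calls and 50% of the flox calls. The same shares over all tested genes were not computed, so these percentages do not set the 37 genes apart. The mKO count was 5 without mKO unloading replicate 3 or mKO reloading replicate 2. The flox count was 9 without flox unloading replicate 1, flox unloading replicate 2 or flox reloading replicate 3, and 7 without flox reloading replicate 2.

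Psme4 showed the largest fall in both genotypes. In mKO muscle it had 377, 368 and 371 CPM at control, 383, 381 and 392 CPM at unloading and 316, 214 and 262 CPM at reloading. In flox muscle it had 322, 317 and 410 CPM at control, 353, 369 and 393 CPM at unloading and 202, 252 and 245 CPM at reloading. Each reloading library lay below every control and unloading library of its genotype, and mKO reloading replicate 1 stood closest to them. The fall was -0.55 ± 0.12 log2 (adjusted p = 0.00444) in mKO and -0.67 ± 0.12 (adjusted p = 0.000384) in flox, called under all 25 settings in both, and the difference between these falls was 0.13 with an interval from -0.23 to 0.49.

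The base genes fell as a class of 3. Psmd4, a ubiquitin receptor, had 115, 109 and 101 CPM in mKO reloading against 152, 122 and 147 CPM in mKO unloading libraries, and 112, 108 and 104 CPM in flox reloading against 140, 150 and 132 CPM in flox unloading libraries. Its groups did not overlap in either genotype, and it fell, at -0.37 ± 0.09 (adjusted p = 0.00666) in mKO and -0.38 ± 0.09 (adjusted p = 0.00264) in flox. Psmd1, a scaffold subunit, had 169, 171 and 171 CPM in mKO reloading against 216, 199 and 218 CPM in mKO unloading libraries, a change of -0.31 ± 0.06 (adjusted p = 0.00194), and in flox muscle it fell, at -0.20 ± 0.06 (adjusted p = 0.015). Psmd2, the other scaffold subunit, fell, at -0.26 ± 0.07 (adjusted p = 0.015) in mKO and -0.21 ± 0.07 (adjusted p = 0.0296) in flox. Of the 6 ATPase genes, Psmc1 fell in both genotypes, at -0.29 ± 0.08 (adjusted p = 0.0134) in mKO and -0.24 ± 0.08 (adjusted p = 0.0221) in flox, Psmc3 and Psmc5 fell in flox, at -0.20 ± 0.07 (adjusted p = 0.0399) and -0.23 ± 0.065 (adjusted p = 0.0113), and Psmc2, Psmc4 and Psmc6 passed in neither. Without the low-count filter, or under total-count scaling, the flox falls of Psmc1, Psmc3, Psmc5, Psmd1 and Psmd2 were not called. Under total counts the flox median of the 37 turned to 0.074, and the median of all genes to 0.114, a shift of 0.11 log2. The fall of Psmd4 was called under all 25 settings in both genotypes, and that of Psmd1 under all 25 in mKO. Other base and ATPase calls were lost without single libraries. With only the groups compared fitted, Psmc1 and Psmd2 in mKO and Psmc3 and Psmd2 in flox were not called, nor was Psmd2 in mKO without the low-count filter. In mKO, Psmc1 was not called without mKO unloading replicate 3 or mKO reloading replicate 2 or 3 (adjusted p up to 0.0816), nor Psmd2 without mKO unloading replicate 1 or mKO reloading replicate 2 or 3 (up to 0.109). In flox, none of Psmc1, Psmc3, Psmc5, Psmd1 and Psmd2 was called without flox unloading replicate 2, and without flox reloading replicate 2, or without replicate 3, only 1 of these 5 was. Psmc3 was also lost without flox control replicate 2, flox unloading replicate 1 or flox reloading replicate 1, Psmd2 without flox unloading replicate 1 or flox reloading replicate 1, and Psmc1 without flox unloading replicate 3. The adjusted p of these 5 reached 0.434 over all settings.

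In the rings of the core few genes changed. In the alpha ring, Psma7 fell, at -0.34 ± 0.10 (adjusted p = 0.0191) and Psma5, at -0.27 ± 0.085 (adjusted p = 0.033) in mKO, and Psma1 rose by 0.28 ± 0.08 (adjusted p = 0.0113) in flox. The other 4 alpha genes passed in neither genotype in the main fit. Under total counts, and without flox unloading replicate 3, Psma3 and Psma4 were called higher in flox. Psma3 shares 100% of 685 aligned bases with Gm13835, which averaged 1603.6 counts against 6468.2. On reloading Gm13835 rose by 0.27 ± 0.074 (edgeR adjusted p = 0.00986) in flox. The part of Gm13835 reads in the Psma3 counts was not tested. With only the groups compared fitted, neither Psma7 nor Psma5 was called, and Psma5 was not called without the low-count filter or under total counts. The call of Psma7 was also lost without mKO unloading replicate 1 or 3 or mKO reloading replicate 2 (adjusted p up to 0.117), that of Psma5 without mKO unloading replicate 1 or 3 or mKO reloading replicate 2 or 3 (up to 0.161), and that of Psma1 without flox unloading replicate 1 or flox reloading replicate 2 (up to 0.078). None of the 7 constitutive beta ring genes passed in any of the 12 comparisons by edgeR or by DESeq2, and in each of the 4 comparisons with reloading 1 of 7 had an unadjusted p under 0.05. Under total-count scaling Psmb6 was called higher at reloading than at control in flox. Their reloading changes ran from -0.14 to 0.13 in mKO and from -0.15 to 0.08 in flox.

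Of the 8 lid genes, 0 passed on reloading in mKO by edgeR, with 2 at an unadjusted p under 0.05 and 1 called by DESeq2 (Psmd7), and 2 rose in flox. Psmd11 had 139, 142 and 122 CPM in flox reloading against 99.2, 111 and 106 CPM in flox unloading libraries, without overlap, and rose by 0.35 ± 0.07 (adjusted p = 0.00132), a call kept under all 25 settings. In mKO muscle it had 119, 122 and 108 CPM at reloading against 117, 112 and 106 CPM at unloading, overlapping, a change of 0.06 ± 0.07 (adjusted p = 0.63). Psmd14, the deubiquitinase of the lid, had 74.6, 73.7 and 67.8 CPM in flox reloading against 53.2, 61.9 and 64.1 CPM in flox unloading libraries and rose by 0.27 ± 0.08 (adjusted p = 0.0165), while in mKO it had 66.8, 62.2 and 59.5 CPM at reloading against 56.0, 62.1 and 60.8 CPM at unloading (adjusted p = 0.569). The Psmd14 call was lost without flox unloading replicate 1 or flox reloading replicate 1 or 2 and with only the groups compared fitted (adjusted p up to 0.112). The other 6 lid genes did not pass by edgeR in either genotype. A near copy of Psmd11, the gene A730017L22Rik, shares 97.9% of 1501 aligned bases and averaged 181.8 counts per library against 5568.7 for Psmd11.

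The PA28 and immunoproteasome genes that passed on reloading all rose. Psme1 rose by 0.53 ± 0.10 (adjusted p = 0.00147) in mKO and 0.44 ± 0.10 (adjusted p = 0.00252) in flox, back to levels that overlapped those of control. Psme2 had 19.2, 21.6 and 19.8 CPM in flox reloading against 14.1, 13.7 and 15.3 CPM in flox unloading libraries and rose by 0.49 ± 0.09 (adjusted p = 0.000446). In mKO muscle it had 19.3, 17 and 17.6 CPM at reloading against 15.5, 16.3 and 15 CPM at unloading, which did not overlap, but the change of 0.20 ± 0.09 did not pass (adjusted p = 0.132). Psme2 shares 99.4% of 794 aligned bases with Psme2b, which averaged 279.8 counts against 806.7 and rose by 0.46 ± 0.14 (adjusted p = 0.0194) in flox, so the split of reads between this pair is uncertain.

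Psmb10, the immunoproteasome counterpart of Psmb7, rose in both genotypes. It had 11.9, 10.2 and 9.98 CPM in mKO reloading against 9.32, 7.42 and 8.27 CPM in mKO unloading libraries, a rise of 0.36 ± 0.11 (adjusted p = 0.0315). In flox muscle it had 13.4, 12.8 and 11.8 CPM at reloading against 8.58, 9.51 and 8.15 CPM at unloading, a rise of 0.53 ± 0.11 (adjusted p = 0.00126) that was called under all 25 settings. The mKO call was lost without mKO unloading replicate 2 or 3 or mKO reloading replicate 1, without the low-count filter, and with only the groups compared fitted, its adjusted p reaching 0.139. Psmb8, the counterpart of Psmb5, had 4.32, 5.0 and 4.58 CPM in flox reloading against 2.94, 4.07 and 2.25 CPM in flox unloading libraries and rose by 0.59 ± 0.20 (adjusted p = 0.0288). That call was lost without flox unloading replicate 1 or 3 or flox reloading replicate 2 or 3, and with only the groups compared fitted, with adjusted p up to 0.14. In mKO muscle Psmb8 had 2.65, 3.20 and 3.75 CPM at reloading against 2.82, 3.69 and 3.70 CPM at unloading (-0.09 ± 0.20, adjusted p = 0.814). Psmb9, the counterpart of Psmb6, passed in neither genotype. It had 2.83, 3.32 and 2.75 CPM in mKO reloading libraries, 0.39 ± 0.19 above unloading (adjusted p = 0.163), and 2.35, 3.78 and 3.35 CPM in flox reloading libraries, 0.07 ± 0.18 above unloading (adjusted p = 0.811). Exons of Psmb9 overlap those of Tap1 on the opposite strand, which had more counts than Psmb9 itself, 266.4 against 141.3 on average. Tap1 moved by -0.39 ± 0.15 (adjusted p = 0.132) on unloading in mKO, where its groups did not overlap, and by -0.04 ± 0.16 (adjusted p = 0.933) in flox. On reloading it moved by 0.41 ± 0.15 (adjusted p = 0.0743) in mKO and rose by 0.66 ± 0.15 (adjusted p = 0.00308) in flox. The part of Tap1 reads in the Psmb9 counts was not tested.

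**Figure D3:**
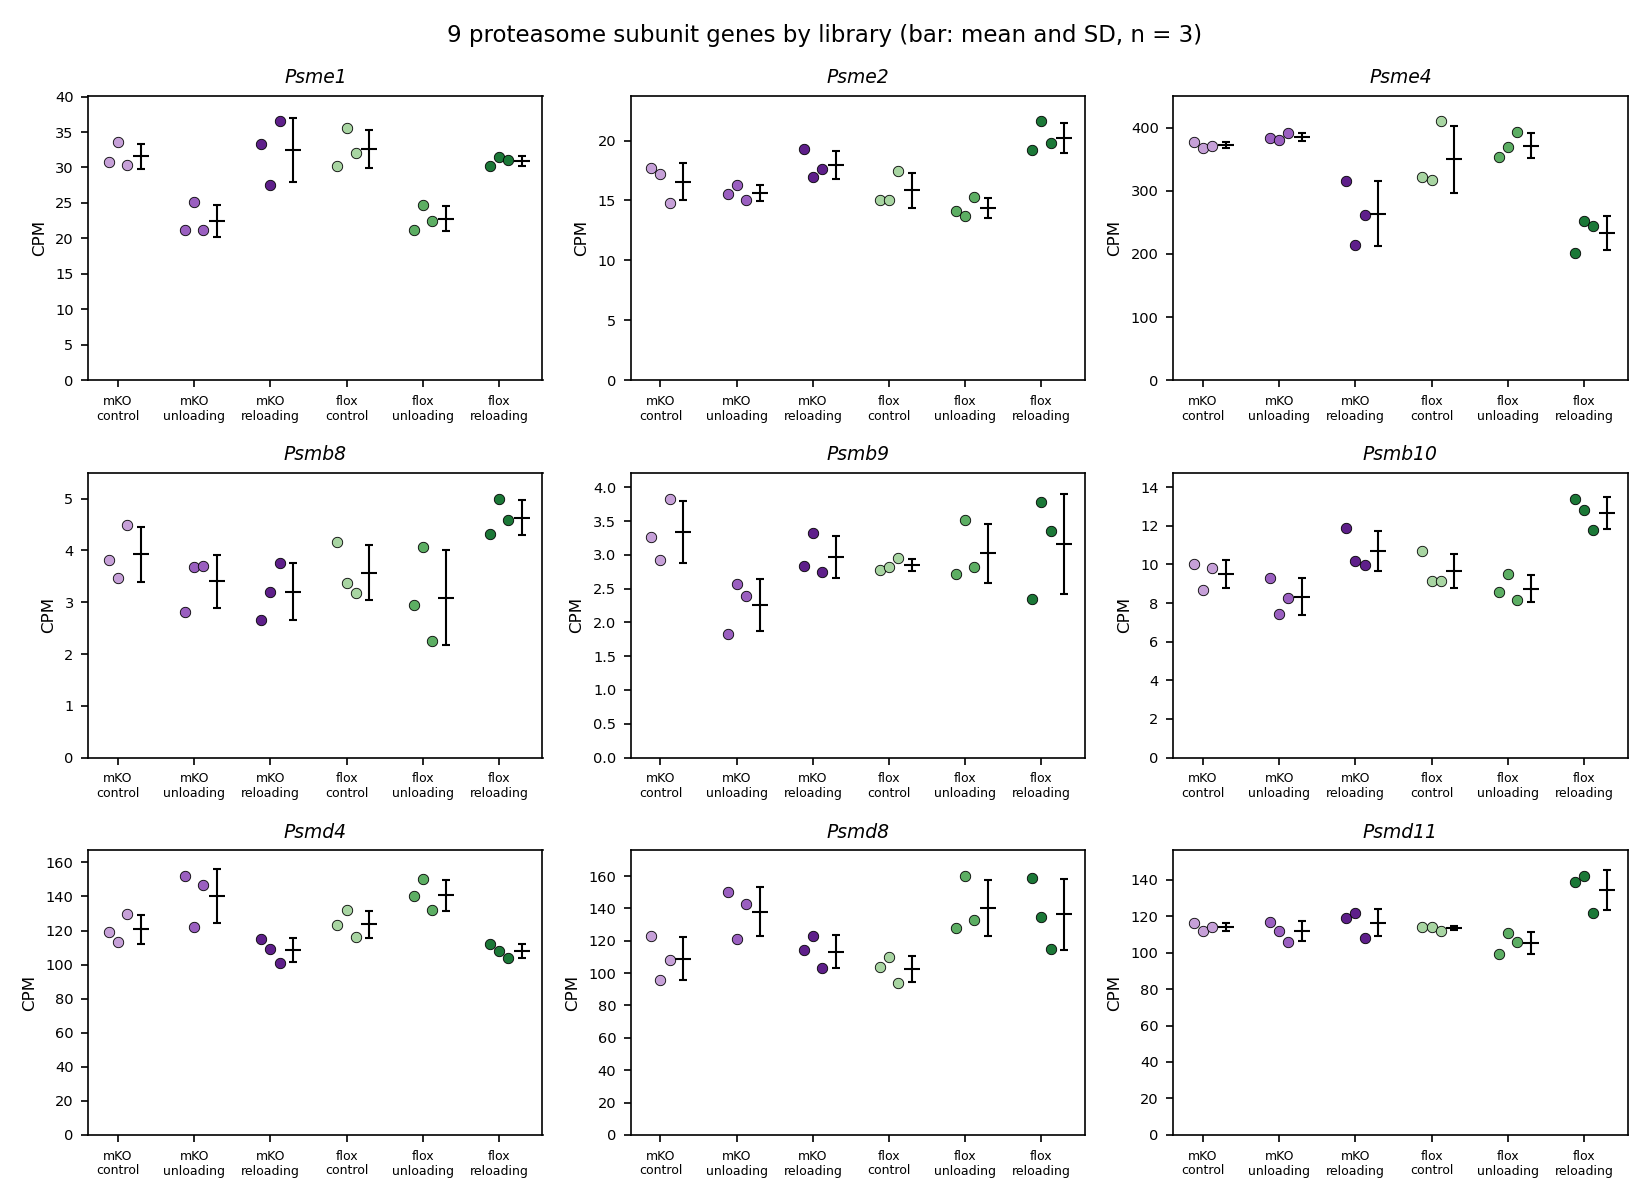
CPM of 9 genes in each library (points), with the mean and SD of each group of 3 (bars), mKO groups on the left and flox groups on the right of each panel and all axes from 0. Psme1 dips at unloading in both genotypes, Psme4 is low at reloading in both, and Psmb8, Psmb10, Psme2 and Psmd11 have their highest group in flox reloading.

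Expressed as TPM ratios, RNA of the immunoproteasome genes stayed below that of their constitutive partners. The size of each percentage depends on the deposited exon lengths. These are 2736 bases for Psmb8 and 899 for Psmb5, 1705 for Psmb10 and 3421 for Psmb7, and 3659 for Psmb9 and 1872 for Psmb6. Percentages can thus be compared between libraries for 1 pair, but not between pairs, and they do not measure assembled particles. Psmb8 amounted to 2.12%, 2.83% and 2.47% of Psmb5 in flox reloading against 1.5%, 1.84% and 1.15% in flox unloading libraries, without overlap, and to 1.33%, 1.76% and 2.0% in mKO reloading against 1.42%, 2.07% and 1.80% in mKO unloading libraries. Psmb10 amounted to 19.3%, 18.6% and 17.1% of Psmb7 in mKO reloading against 14.5%, 11.6% and 12.7% in mKO unloading libraries, and to 23.7%, 22.8% and 20.8% in flox reloading against 14.2%, 15.4% and 12.5% in flox unloading libraries. Every reloading library exceeded every unloading and control library of its genotype in that ratio. Psmb9 ran from 0.773% to 1.78% of Psmb6 over all libraries, and mKO unloading, at 0.773%, 1.18% and 1.03%, lay below flox unloading, at 1.2%, 1.47% and 1.2%.

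**Figure D4:**
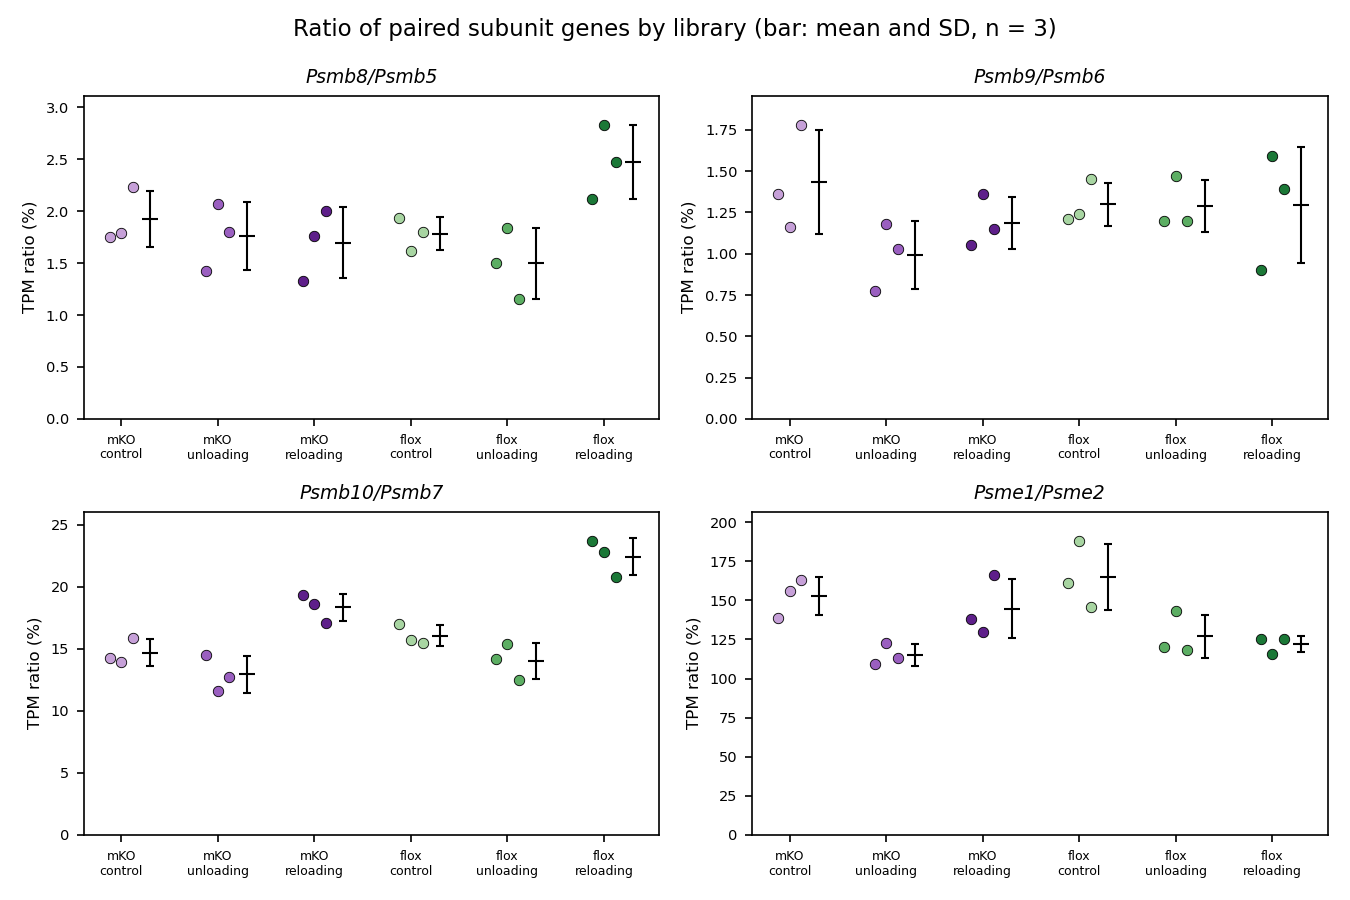
TPM of one gene as a percentage of its partner in each library (points), with mean and SD of each group of 3 (bars), mKO groups left of flox groups. The Psmb10 to Psmb7 ratio is highest at reloading, 18.3% in mKO and 22.4% in flox on average, and the Psme1 to Psme2 ratio is low at unloading, 115% in mKO and 127% in flox.

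Markers of macrophages, fibroblasts and endothelial cells moved in the same libraries. The 15 macrophage and monocyte markers summed to 140 to 211 CPM at control, 107 to 164 CPM at unloading and 167 to 237 CPM at reloading in mKO libraries, and to 169 to 173, 153 to 183 and 335 to 507 CPM in flox libraries. On reloading 5 of 15 rose in mKO, against 9.53% of all tested genes, and 13 of 15 in flox, against 17%. No marker was absent from all libraries. Fibroblast markers reached 1733 to 2122 CPM in mKO reloading and 2326 to 3327 CPM in flox reloading libraries, against 912 to 1153 CPM in mKO unloading and 999 to 1185 CPM in flox unloading libraries. Of the 7 fibroblast markers, 4 rose on reloading in mKO, and 5 rose and 1 fell in flox. All tested genes rose in 9.53% of cases in mKO, and rose in 17% and fell in 14.9% in flox. The log2 fold changes of these 7 markers ran from -0.23 to 2.51 in mKO and from -0.40 to 3.05 in flox. Of 6 endothelial markers, 3 rose on reloading in mKO and 4 in flox, against the same 9.53% and 17%. Of the lymphocyte list 6 of 13 genes passed the low-count filter, and they summed to at most 2.50 CPM in any library. Neutrophil markers, 4 of 6 tested, summed to at most 4.05 CPM except for 8.81 CPM in flox unloading replicate 3. The part of these cells in the rise of Psmb8, Psmb10, Psme1 and Psme2 was not tested.

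Reloading against control compared each genotype with its starting state. In mKO muscle Psme4 was the 1 gene called, lower, at -0.49 ± 0.12 (adjusted p = 0.0396), with 0 of 37 higher (DESeq2 also 0 higher, and 6 of 37 genes at an unadjusted p under 0.05), against 1.34% higher and 0.841% lower, or 2.18% in all, of all tested genes. The call was lost with only the groups compared fitted. The count at an unadjusted p is given without that of all tested genes, so it does not set the 37 genes apart. Leaving out any mKO control library, mKO unloading replicate 3, or mKO reloading replicate 2 or 3 left 0 genes called, with an adjusted p of Psme4 up to 0.205, and leaving out mKO reloading replicate 1 gave 2. The next smallest p in mKO was that of Psma5, at 47.0, 39.4 and 35.6 CPM in mKO reloading against 49.2, 47.5 and 48.2 CPM in mKO control libraries (-0.25 ± 0.085, adjusted p = 0.136). In flox muscle 5 genes were higher and 1 was lower, against 12.3% higher and 10.3% lower, or 22.6% in all, of all tested genes. The lower one was Psme4, at -0.58 ± 0.12 (adjusted p = 0.00193), called under all 25 settings. The higher ones were Psmd8 at 0.41 ± 0.12 (adjusted p = 0.0244), with 159, 135 and 115 CPM in flox reloading libraries, Psmb10 at 0.39 ± 0.11 (adjusted p = 0.0159), Psme2 at 0.35 ± 0.09 (adjusted p = 0.00878), Psmd11 at 0.25 ± 0.07 (adjusted p = 0.0198) and Psmd13 at 0.20 ± 0.06 (adjusted p = 0.0243). Under total-count scaling, which moves the median of all genes by 0.146 log2 here, 9 genes were higher and 1 lower. The control libraries of flox muscle held 15, 15 and 17.5 CPM of Psme2 and 10.7, 9.14 and 9.14 CPM of Psmb10, below every flox reloading library of the same gene. Of the 5 higher genes, Psme2 had an adjusted p of 0.0559 once flox reloading replicate 2 was left out, and Psmb10, Psmd8, Psmd11 and Psmd13 each lost their call without flox control replicate 3, flox reloading replicate 1 or flox reloading replicate 2. Psmd11 and Psmd13 were also lost without flox control replicate 1 or 2, Psmd8 without replicate 1, Psmb10 without replicate 2 and Psmd13 without flox reloading replicate 3. Without the low-count filter Psmd11 and Psmd13 were not called. Over all settings adjusted p reached 0.069 for Psmb10, 0.112 for Psmd11, 0.145 for Psmd8 and 0.23 for Psmd13. Psmb8, with 4.17, 3.37 and 3.17 CPM in flox control libraries, was 0.38 ± 0.19 higher at reloading and did not pass (adjusted p = 0.183). The flox count was 3 without flox control replicate 2 or flox reloading replicate 1, 2 without flox control replicate 3 and 1, Psme4, without flox reloading replicate 2.

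The comparison of mKO with flox asked whether loss of Zfp697 in muscle altered these genes. None of the 37 was called at control, at unloading or at reloading, nor in any of the 3 interactions that test whether a loading change differs between genotypes, by edgeR or by DESeq2. All tested genes were called in 0% of cases at control and at unloading and in 4.91% at reloading (1.06% higher and 3.85% lower in mKO), and the interactions called 0% for unloading against control, 0% for reloading against unloading and 0.522% for reloading against control (0.0224% with a positive and 0.499% with a negative difference). At an unadjusted p under 0.05 there were 0 of 37 at control, 1 at unloading, 5 at reloading, and 1, 3 and 2 in the interactions. The same counts over all tested genes are not given here, so these do not set the 37 genes apart. Apart from the immunoproteasome genes, the 95% interval of the mKO over flox difference stayed within 0.5 log2 of 0 for 34 of 34 genes at control, 34 of 34 at unloading and 33 of 34 at reloading. That bound is about as wide as the loading changes of Psme1, so smaller genotype differences remain possible. In the interactions it held for 34 of 34 (unloading against control), 31 of 34 (reloading against unloading) and 30 of 34 (reloading against control). Their intervals reached down to -0.48, -0.61 and -0.72.

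The smallest p at reloading were those of Psmd11, at -0.20 ± 0.07 (adjusted p = 0.114; interval from -0.36 to -0.05), and Psmb8, at -0.53 ± 0.20 (adjusted p = 0.127; interval from -0.94 to -0.12). Psmb8 had 2.65, 3.20 and 3.75 CPM in mKO reloading against 4.32, 5.0 and 4.58 CPM in flox reloading libraries, without overlap, and Psmd11 had 119, 122 and 108 CPM against 139, 142 and 122 CPM, with 122 CPM in the highest mKO and the lowest flox library. Psme4 differed by 0.18 ± 0.12 (adjusted p = 0.449) and Psme1 by 0.07 ± 0.10 (adjusted p = 0.766). With total-count scaling, which moves the median of all genes by -0.134 log2 in this comparison, Psmb8, Psmd11, Psmd14 and Psme2 were called lower in mKO. The 15 macrophage and monocyte markers summed to 167 to 237 CPM in mKO reloading against 335 to 507 CPM in flox reloading libraries, without overlap.

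At control the smallest p were those of Psmb7, which had 140, 125 and 124 CPM in mKO against 127, 117 and 118 CPM in flox libraries (0.11 ± 0.07), and Psmd13, which had 72.3, 71.7 and 68.3 CPM in mKO against 67.2, 66.1 and 66.7 CPM in flox libraries (0.09 ± 0.06). Neither passed (adjusted p = 1.0 for both). At unloading they were those of Psmb9 (-0.41 ± 0.19, adjusted p = 1.0) and Psmc2, with 120, 115 and 120 CPM in mKO against 101, 116 and 116 CPM in flox libraries (0.09 ± 0.07, adjusted p = 1.0). In the interactions they were Psmb9 at -0.64 ± 0.26 and Psmd13 at -0.16 ± 0.09 for unloading against control (adjusted p = 1.0 for both), Psmd11 at -0.29 ± 0.10 (adjusted p = 0.327) and Psmb8 at -0.67 ± 0.28 (adjusted p = 0.407) for reloading against unloading, and Psmd14 at -0.29 ± 0.12 (adjusted p = 0.283) and Psmb8 at -0.67 ± 0.28 (adjusted p = 0.299) for reloading against control. For reloading against unloading, the difference between genotypes was -0.29 ± 0.13 (adjusted p = 0.43) for Psme2 and 0.09 ± 0.14 (adjusted p = 0.879) for Psme1.

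**Figure D5:**
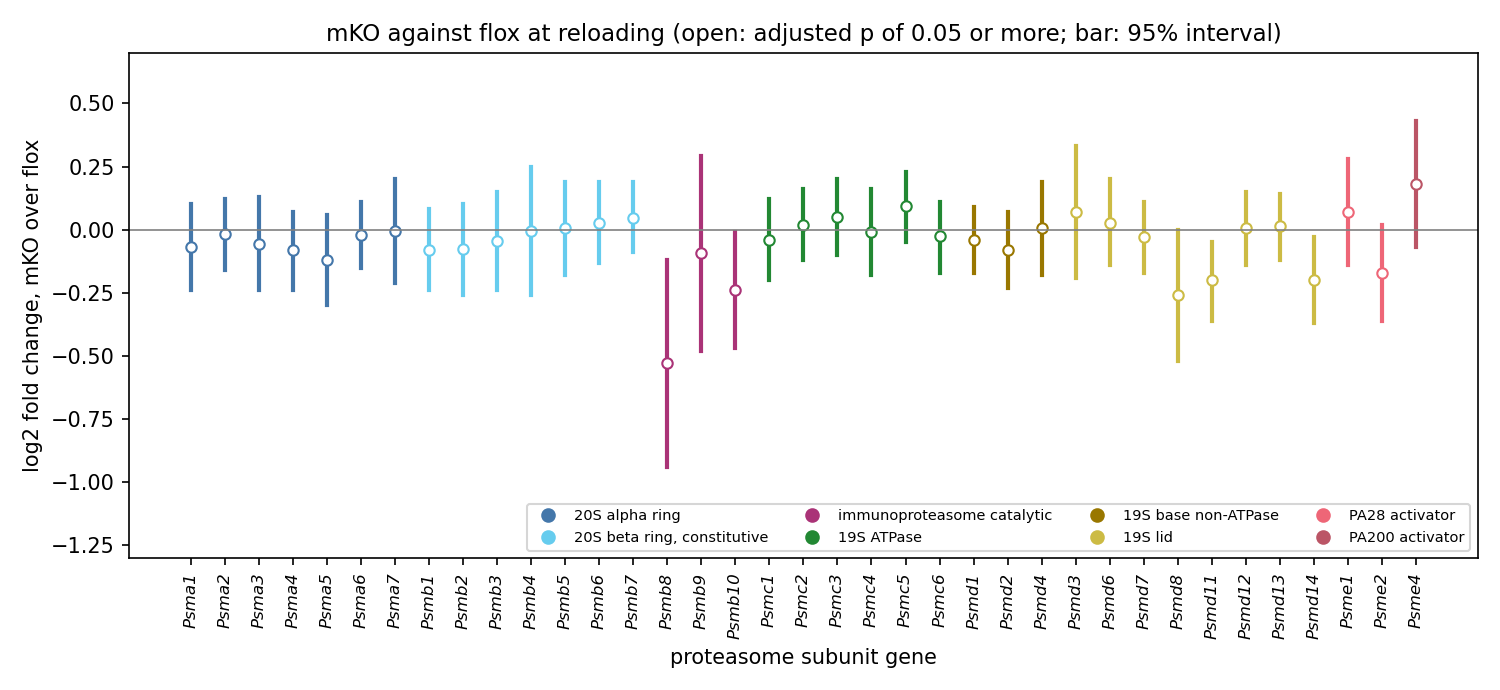
Log2 fold change of mKO over flox at reloading for each of the 37 genes, coloured by class, with 95% intervals; open points have an adjusted p of 0.05 or more. All 37 points are open, Psmb8 is lowest at -0.53 and Psme4 highest at 0.18.

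Genes that build, supply or control the proteasome were described from pathway lists, chosen like the 37 with earlier results of these data known. On reloading, the share of all tested genes called was 18.3% in mKO (9.53% higher, 8.81% lower) and 31.9% in flox (17% higher, 14.9% lower). Of 8 assembly chaperone genes, Psmg2, which helps form the alpha ring, rose on reloading in mKO by 0.28 ± 0.09 (adjusted p = 0.0378), and Psmd5, which chaperones the 19S base, rose by 0.36 ± 0.09 (adjusted p = 0.00519) while Psmd9, another base chaperone, fell, at -0.30 ± 0.08 (adjusted p = 0.00757) in flox. Pomp, the maturation factor of the core, moved by 0.03 ± 0.08 (adjusted p = 0.857) in mKO and -0.06 ± 0.08 (adjusted p = 0.607) in flox. Of 9 other proteasome parts and regulators 1 (11.1%) was called on reloading in each genotype, a share below that of all tested genes, in both cases Ecpas, a scaffold that binds the 26S particle, which fell, at -0.39 ± 0.08 in mKO (adjusted p = 0.00205) and by the same amount in flox (adjusted p = 0.000947).

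Of 13 genes of the NFE2L1 pathway, which drives proteasome gene transcription when the proteasome is impaired, 2 (15.4%) rose on unloading in mKO, against 4.09% of all tested genes. In flox 0 of 13 were called on unloading, against 5.74% of all tested genes. Ddi2, the protease that activates NFE2L1, rose by 0.50 ± 0.10 (adjusted p = 0.00584) in mKO unloading, against 0.32 ± 0.10 (adjusted p = 0.0683) in flox, and on reloading fell, at -0.78 ± 0.10 (adjusted p = 6.48e-05) in mKO and -0.46 ± 0.10 (adjusted p = 0.00164) in flox. On reloading 5 fell in mKO, against 8.81% of all tested genes, and 4 fell and 1 rose in flox, against 14.9% and 17%. Among those that fell was the antioxidant enzyme gene Nqo1, at -0.96 ± 0.12 (adjusted p = 7e-05) in mKO and -0.73 ± 0.12 (adjusted p = 0.000212) in flox. The gene that rose in flox was Hmox1, and the highest change of the list there was 0.67 log2. Nfe2l1 itself moved by -0.03 ± 0.09 (adjusted p = 0.869) in mKO and 0.05 ± 0.09 (adjusted p = 0.695) in flox on reloading. Of 15 genes for ubiquitin supply, activation and shuttling, 3 (20%) were called on reloading in mKO, all lower, a share close to the 18.3% of all tested genes, and in flox 7 fell and 1 rose (53.3%), against 31.9%. The polyubiquitin gene Ubb fell, at -0.41 ± 0.09 (adjusted p = 0.00505) in mKO and -0.63 ± 0.09 (adjusted p = 7.04e-05) in flox, and Sqstm1, an autophagy receptor for ubiquitin chains, at -0.54 ± 0.14 (adjusted p = 0.0103) in mKO and -0.65 ± 0.14 (adjusted p = 0.00143) in flox.

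Genes downstream of the immunoproteasome, in MHC class I antigen processing, rose on reloading in 4 of 9 cases in mKO, against 9.53% of all tested genes, and 8 of 9 in flox, against 17%. Pdia3, an oxidoreductase of the peptide-loading complex, rose by 0.66 ± 0.10 (adjusted p = 0.000203) in mKO and 1.05 ± 0.10 (adjusted p = 7e-07) in flox, and B2m, the light chain, by 0.39 ± 0.10 (adjusted p = 0.00972) in mKO and 0.72 ± 0.10 (adjusted p = 2.57e-05) in flox. On unloading B2m fell in both genotypes. Of the interferon list 12 of 13 genes passed the filter, and 7 of 12 rose on reloading in mKO and 10 of 12 in flox, against the same 9.53% and 17%, led by Ifi44 at 1.56 ± 0.28 (adjusted p = 0.00101) in mKO and by Cxcl10 at 2.58 ± 0.46 (adjusted p = 0.000383) in flox. Between genotypes at reloading, 1 gene of each list was called, Pdia3 at -0.41 ± 0.10 (adjusted p = 0.0194) and Isg15, a ubiquitin-like modifier, at -1.04 ± 0.25 (adjusted p = 0.0245), both lower in mKO.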

How the data were processed

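RNA was sequenced from gastrocnemius in 18 libraries, 3 in each of 6 groups, from poly-A enriched stranded libraries, per the labels' protocols. The authors deposited 1 table of raw read counts per gene. Per the file headers it was made with featureCounts 1.6.4 on Ensembl release 94 with no strand option shown, while the submitters' processing notes name featureCounts 2.0.3, STAR 2.7.3a, GRCm38.p6 and DESeq2. How reads shared by overlapping or near-identical genes were counted is therefore uncertain, and 11 of the 37 genes overlap another gene. Among them Psmc3 overlaps Slc39a13, which averaged 1155.4 counts per library, and Psmb7 overlaps Nek6, which averaged 530.1. No 2 libraries of a group agreed within sampling noise. Total counts of 45069595 to 51592566 make counting error small for all but the lowest genes. The authors' deposited comparison tables were not used.

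Genes were filtered with filterByExpr, scaled with TMM and fitted in 1 model of 6 group means with the quasi-likelihood F test of edgeR 4.0.16 (R 4.3.3). A gene counted as called where its p, adjusted by Benjamini and Hochberg's method across the 17833 genes tested, was under 0.05. The test was run for 12 contrasts, 6 of loading within a genotype, 3 of genotype and 3 interactions. Standard errors and 95% intervals come from the same fit, and fold changes are on the log2 scale. CPM use TMM-scaled totals, and TPM use the deposited exon length. Alternatives were relative log expression and total-count scaling, no filter, a stricter filter, a replicate block, a fit of only the groups compared, DESeq2 1.42.0 and each of 18 libraries left out in turn. Promoter windows are from RefSeq, and near copies were found with BLAST 2.17.0. The script was checked on simulated counts with known changes.

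Each library's values are given for the constitutive and immunoproteasome catalytic genes, the activator genes and, in each comparison, the called genes with the largest rise and fall or, where none passed, the smallest p. The members and lists were chosen with earlier results of these data known.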

Additional observations from a re-analysis of the deposited data

How the results depend on the processing

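No change of direction occurred among the 37 genes' calls in any of the 25 alternative settings per contrast. Unloading against control in mKO called 1 gene, and 2 with no filter, with the replicate block or with DESeq2. Reloading against unloading called 9 genes in mKO, 4 when only the groups compared were fitted, and 14 in flox, 9 with no filter. Reloading against control in mKO called 1 gene, 0 when only the groups compared were fitted and 2 with DESeq2, and in flox 6, 10 with total counts. mKO against flox at reloading called 0 genes and 4 with total counts, and the 5 other genotype contrasts and interactions called 0 under every setting. The antioxidant element stood in 5 windows, or 16.1% against 14% of all genes, and in 2 when a final A was required, or 6.45% against 3.45%. Leaving out 1 library gave 1 to 3 genes (mKO) and 1 to 4 (flox) for unloading against control, 5 to 9 and 7 to 15 for reloading against unloading, 0 to 2 and 1 to 7 for reloading against control, and 0 for every genotype contrast and interaction. Libraries that share a replicate number did not deviate together (median r 0.024 over 45 pairs, range -0.074 to 0.126, against -0.004 over 90 other pairs). No pairing by number was thus seen, though 3 libraries per group cannot exclude one. The replicate block left the other counts of calls among the 37 genes within 1.5 times. Over all tested genes it moved the interaction calls from 0 to 10 for reloading against unloading and from 93 to 143 for reloading against control. The depth limits Psmb8 and Psmb9, whose intervals are the widest of the 37. Causes of these changes were not tested.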
